A study of Mus musculus with 4 samples.

Results

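Genes of the heterogeneous nuclear ribonucleoprotein (hnRNP) family and the genes annotated across from them on the other DNA strand were examined in mouse T-helper 2 (Th2) cells. The set held 10 of the 50600 genes in the count tables. They were 7 hnRNP genes, namely Hnrnpab, Ptbp1, Hnrnpu, Hnrnpk, Hnrnpa2b1, Hnrnpc and Hnrnpl, and 3 partner genes whose exons overlap one of them on the opposite strand, namely Phykpl, Gm17134 and Cox20. They were chosen by symbol, with their counts per kilobase (kb) of exon on both strands in replicates 1, 3 and 4 in view, so those levels and strand ratios are descriptions without a test.

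The samples were 4 RNA sequencing libraries of primary Th2 cells from the mouse strain C57BL/6NJ, all in a single group and numbered as biological replicates 1 to 4. No treatment, genotype or second cell type is given in the labels, age is given as unknown and sex as not collected. Each replicate has its own biosample but all carry the same donor entry, so p-values may measure only technical spread. The labels describe total RNA, the library protocol's file title speaks of poly(A)+ RNA, and a time of 72 h, of unstated meaning, stands in the header of each table.

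The values were raw fragment counts per gene, on the strand that the authors' counting setting assigned. Replicates 1, 3 and 4 held 2388255, 1929880 and 1713199 counts, and replicate 2 held 5016, so a level of 598.09 CPM (counts scaled to a common library total) in replicate 2 was only 3 counts. In replicates 1, 3 and 4 the 3-count floor was 1.26 to 1.75 CPM. All 8 T cell markers and all 7 Th2 markers on the lists had counts in each of replicates 1, 3 and 4, whereas of 12 markers of other cells 1 (Pecam1) did and 7 had no count there. Genes with exons opposite another gene's exons, 16.2% of all genes, held 84.8% to 94.2% of the counts of each library.

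The strand of these counts carries a limit that touches every level, rank and share given here. The counting setting takes read 1 as lying on the gene's strand, but no source used here states the strand chemistry of the kit. If the kit has the opposite orientation, the counts listed for a partner gene are fragments of RNA from the strand of its hnRNP neighbour, and those listed for an hnRNP gene are fragments of RNA from the partner's strand. Most messenger RNAs of the mouse mitochondrial genome are known to come from its plus-strand genes, yet 83.6%, 75.6%, 83.0% and 77.7% of that genome's counts fell on its 9 minus-strand genes (replicates 1 to 4), which make up 6.92% of its exonic bases. Totals per gene cannot be re-counted with the strands exchanged, so values below are those of the assigned strand and need not describe the named gene's own RNA.

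hnRNP proteins bind RNA as it is transcribed, package it, and guide its splicing, export and stability. Several act as splicing repressors or activators by binding short motifs in exons and introns, and they compete or cooperate with the serine/arginine-rich (SR) proteins. In T cells, Hnrnpl and its relative Hnrnpll are known for controlling the alternative exons of Ptprc, the gene of the phosphatase CD45, and Ptbp1 for stabilising the messenger RNA of CD40 ligand.

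The promoter windows of 4 of the hnRNP genes are printed from RefSeq (build GRCm38.p6), each running from 250 bases before to 50 bases after a gene's start, 5′ to 3′ on the gene's strand. Hnrnpab and Ptbp1 belong to the 2 pairs with the wider strand split, and Hnrnpc and Hnrnpa2b1 are the members that stood apart in replicate 3. Capitals mark exact matches, on either strand, to any of 6 motifs searched, namely the ETS motif CCGGAAG, the SP motif GGGCGG, the NRF1 motif, the CCAAT box CCAAT, the TATA box TATAAA and the E-box CACGTG.
Hnrnpab chr11:51606832-51607131, minus strand: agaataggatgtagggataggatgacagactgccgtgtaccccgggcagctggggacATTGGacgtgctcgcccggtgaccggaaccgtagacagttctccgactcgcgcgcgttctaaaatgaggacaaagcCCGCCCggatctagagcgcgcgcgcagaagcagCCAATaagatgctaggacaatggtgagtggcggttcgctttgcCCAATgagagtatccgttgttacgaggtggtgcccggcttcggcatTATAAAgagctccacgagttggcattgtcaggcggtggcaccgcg
Ptbp1 chr10:79854182-79854481, plus strand: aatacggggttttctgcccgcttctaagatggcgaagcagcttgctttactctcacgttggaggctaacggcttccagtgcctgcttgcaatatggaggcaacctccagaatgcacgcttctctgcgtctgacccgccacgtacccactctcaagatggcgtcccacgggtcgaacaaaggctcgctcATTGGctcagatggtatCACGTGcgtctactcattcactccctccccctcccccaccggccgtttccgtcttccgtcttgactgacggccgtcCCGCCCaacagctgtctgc
Hnrnpc chr14:52103972-52104271, minus strand: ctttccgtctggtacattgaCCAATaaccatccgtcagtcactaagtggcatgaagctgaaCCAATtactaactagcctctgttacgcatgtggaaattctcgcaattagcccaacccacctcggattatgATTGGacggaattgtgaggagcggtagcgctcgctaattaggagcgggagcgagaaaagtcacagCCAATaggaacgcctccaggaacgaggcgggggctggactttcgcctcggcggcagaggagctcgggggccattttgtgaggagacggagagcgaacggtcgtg
Hnrnpa2b1 chr6:51469845-51470144, minus strand: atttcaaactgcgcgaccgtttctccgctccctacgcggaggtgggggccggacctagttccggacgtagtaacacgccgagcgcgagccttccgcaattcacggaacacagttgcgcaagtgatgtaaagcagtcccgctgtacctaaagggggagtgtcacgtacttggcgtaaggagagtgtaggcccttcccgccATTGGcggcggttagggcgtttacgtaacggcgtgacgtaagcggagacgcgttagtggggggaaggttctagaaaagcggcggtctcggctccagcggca
The Hnrnpc window held 4 CCAAT boxes, the Hnrnpab window 3 with 1 TATA box and 1 SP motif, and the Ptbp1 window 1 CCAAT box, 1 SP motif and 1 E-box. The TATA box match of Hnrnpab begins at base 256 of its window, after the gene's annotated start. Hnrnpa2b1 has 2 RefSeq windows, and the printed one held 1 CCAAT box. All 300 bases of the Ptbp1 window lie in the exon of E130317F20Rik, an RNA gene read from the other strand, whereas the other 3 windows hold no exon of the opposite strand.

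RefSeq windows were found for 9 of the 10 genes (10 windows; Gm17134 was the one without). A CCAAT box stood in 7 of these 10 windows, against 37.4% of all 32851 promoter windows, and an SP motif in 6, against 35.7%. The Hnrnpa2b1 windows overlap and hold the same CCAAT box, which counts in each of them. Over a wider list of 33 hnRNP and related genes, 27 were matched with 37 windows, of which 29 held an SP motif, 20 a CCAAT box, 7 an ETS motif, 7 an E-box, 3 a TATA box and 0 an NRF1 motif. The shares over all windows for the last 4 were 8.86%, 7.15%, 13.6% and 0.971%. The windows of the 10 genes held 54.3% to 72.7% G or C, against a median of 52.7% over all windows. The part of base composition in the motif counts was not tested. A match describes letters only and is not evidence of binding.

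Hnrnpab encodes an A/B-type hnRNP with paired RNA recognition motifs, and Phykpl, its partner, encodes the lyase that breaks down phosphorylated hydroxylysine. Phykpl (chr11:51584757-51604489, mm10, plus strand) and Hnrnpab (chr11:51600100-51606847, minus strand) end tail to tail, and their exons share 809 bases. Of these, 719 lie in the 3′ untranslated region (UTR) of Hnrnpab and 90 in its coding sequence. The shared stretch is 8.34% of the exonic length of Phykpl and 29.1% of that of Hnrnpab.

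In replicates 1, 3 and 4 the counts were 38416, 32171 and 26001 for Phykpl, against 1033, 592 and 438 for Hnrnpab. Per kb of exon, Phykpl was thus 10.7-, 15.6- and 17.03-fold denser than Hnrnpab in these libraries (mean log2 ratio 3.82 ± 0.36, SD, n = 3). On the assigned strand, Phykpl was the third most counted gene of all by mean CPM and Hnrnpab ranked 618. With the opposite orientation the Phykpl counts would be fragments from the Hnrnpab strand. In replicate 2, which played no part in choosing the genes, Phykpl held 81 of the 83 counts of the pair, 97.6% (exact 95% interval 91.6 to 99.7), with 77.7% of the pair's exonic length. That interval lies above the share of length, so the excess over length appears also at this depth.

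Ptbp1, the polypyrimidine tract-binding protein also called hnRNP I, represses exons by binding pyrimidine-rich stretches. Gm17134 is annotated as an antisense gene, and no role is given for it in the files. Gm17134 (chr10:79863937-79864434, minus strand) lies wholly inside the last exon of Ptbp1 (chr10:79854427-79864771, plus strand), with all 437 of its exonic bases in the Ptbp1 3′ UTR. Gm17134 had 5076, 3902 and 3329 counts in replicates 1, 3 and 4, against 80, 26 and 47 for Ptbp1.

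Per kb, Gm17134 was 688-, 1628- and 768-fold denser than Ptbp1 in replicates 1, 3 and 4 (mean log2 ratio 9.88 ± 0.67, SD, n = 3), the widest strand split of the 3 pairs. The counts are totals per gene, so the 437 shared bases cannot be set against the rest of Ptbp1. In replicate 2, Gm17134 held 6 of 7 counts, 85.7% (exact 95% interval 42.1 to 99.6), with 8.44% of the pair's exonic length. The interval is wide but lies above the share of length.

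Ptbp1 has 2 further opposite-strand genes. E130317F20Rik, labelled a bidirectional-promoter RNA gene, shares 295 bases with the 5′ part of Ptbp1 and had 3263, 2438 and 1735 counts in replicates 1, 3 and 4. Plppr3, a phospholipid phosphatase-related membrane protein gene, shares 251 bases and had 6279, 4439 and 4146 counts. Both were denser than Ptbp1 in each of these libraries, E130317F20Rik by 48.7- to 124-fold and Plppr3 by 85.4- to 186-fold. In replicate 2 the counts were 9 for E130317F20Rik, 11 for Plppr3 and 1 for Ptbp1.

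Hnrnpu encodes scaffold attachment factor A, which binds nascent RNA and chromatin, and Cox20 encodes an assembly factor of cytochrome c oxidase. Cox20 (chr1:178319130-178322693, plus strand) overlaps Hnrnpu (chr1:178321108-178337797, minus strand) by 804 exonic bases, which are 91.1% of Cox20. None of the 804 lie in the coding sequence or UTRs of protein-coding Hnrnpu transcripts, as annotated in GENCODE vM21. Cox20 had 546, 531 and 478 counts in replicates 1, 3 and 4, against 1477, 961 and 974 for Hnrnpu.

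Here the gene with fewer counts was the denser one, over an exonic length of 883 bases for Cox20 and 11599 for Hnrnpu. Cox20 was 4.86-, 7.26- and 6.45-fold denser than Hnrnpu per kb (mean log2 ratio 2.61 ± 0.30, SD, n = 3), the narrowest split of the 3 pairs. In replicate 2, Cox20 had 1 of 5 counts, 20% (exact 95% interval 0.505 to 71.6), with 7.07% of the length, so a difference from the share of length was not detectable at that depth.

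**Figure D1:**
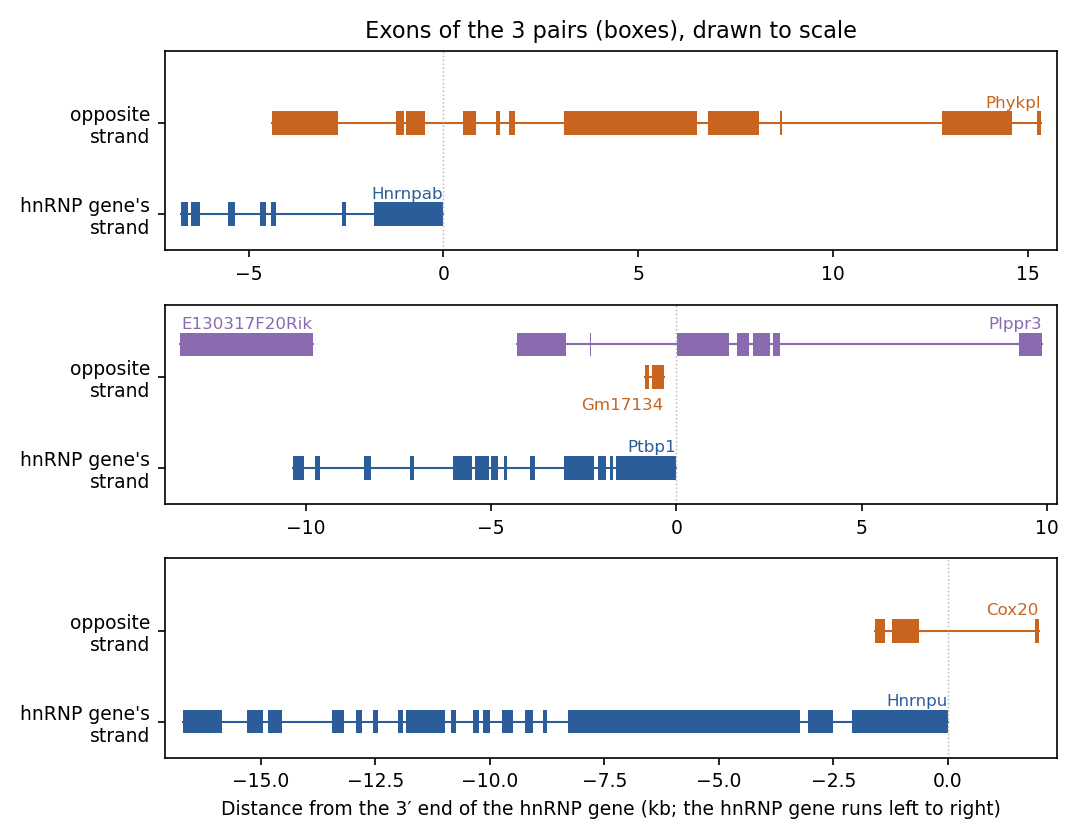
Exons (boxes) and extents (lines) of the 3 pairs to scale, with the opposite-strand gene above its hnRNP gene and distance in kb from the 3′ end of the hnRNP gene on the x axis. Phykpl and Hnrnpab overlap at their ends, Gm17134 lies inside the last exon of Ptbp1, and Cox20 lies across the terminal exons of Hnrnpu, while E130317F20Rik and Plppr3 overlap Ptbp1 elsewhere.

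A strand split of this kind was common in the tables. Of 2013 opposite-strand pairs with 300 or more counts over replicates 1, 3 and 4, 71.3% had the same gene at least 10-fold denser in each of the 3 libraries, as had Phykpl over Hnrnpab and Gm17134 over Ptbp1 but not Cox20 over Hnrnpu. In 98.2% the same gene was denser in each. For every pair here, which gene is called the denser one turns on the strand assignment, which was not tested within the pairs.

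Among 1855 pairs with a protein-coding gene as the sparser one, those with log2 density ratios nearest to Phykpl over Hnrnpab across the 3 libraries were Pcnp over Zbtb11, Gm867 over Chchd10 and Tsc2 over Pkd1, at Euclidean distances of 0.12 to 0.23. Nearest to Gm17134 over Ptbp1 were Gm16156 over Slc12a4, Gm15347 over Atp11a and Gm26879 over Rcor3, at 0.18 to 0.21. Nearest to Cox20 over Hnrnpu were Tceanc2 over Tmem59, Eme1 over Lrrc59 and Gm28959 over Abhd14b, at 0.22 to 0.24.

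The other 4 hnRNP genes had far fewer counts than Hnrnpab and Hnrnpu. Hnrnpk, a poly(C)-binding protein of the KH-domain type, had 240, 119 and 204 counts in replicates 1, 3 and 4. Hnrnpa2b1, which binds RNA for splicing and transport, had 193, 56 and 178. Both genes were lowest in replicate 3.

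Hnrnpc, whose product binds uridine tracts and packages nascent transcripts, had 95, 30 and 67 counts in replicates 1, 3 and 4. Hnrnpl, which binds CA repeats, had 95, 40 and 77. In replicate 2, Hnrnpk and Hnrnpa2b1 had 1 count each and Hnrnpc and Hnrnpl had 0, under the floor of 3 counts.

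In TPM, which sets counts against exonic length as well as library total, the order over replicates 1, 3 and 4 was Gm17134 (6632 ± 282), Phykpl (2351 ± 81.7), Cox20 (422 ± 45.7), Hnrnpab (170 ± 46.5) and Hnrnpu (69.2 ± 8.01; SD, n = 3 each). Then came Hnrnpk (23.8 ± 7.70), Hnrnpc (15.7 ± 7.003), Hnrnpa2b1 (15.5 ± 8.48), Hnrnpl (8.46 ± 3.15) and Ptbp1 (7.49 ± 3.14). From Gm17134 down to Hnrnpk, no gene's 3 values overlapped those of the next. From Hnrnpk down, each gene's range overlapped the next one's, so their order is not fixed by these libraries. In bulk samples, fewer cells of a type and less RNA per cell cannot be told apart.

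**Figure D2:**
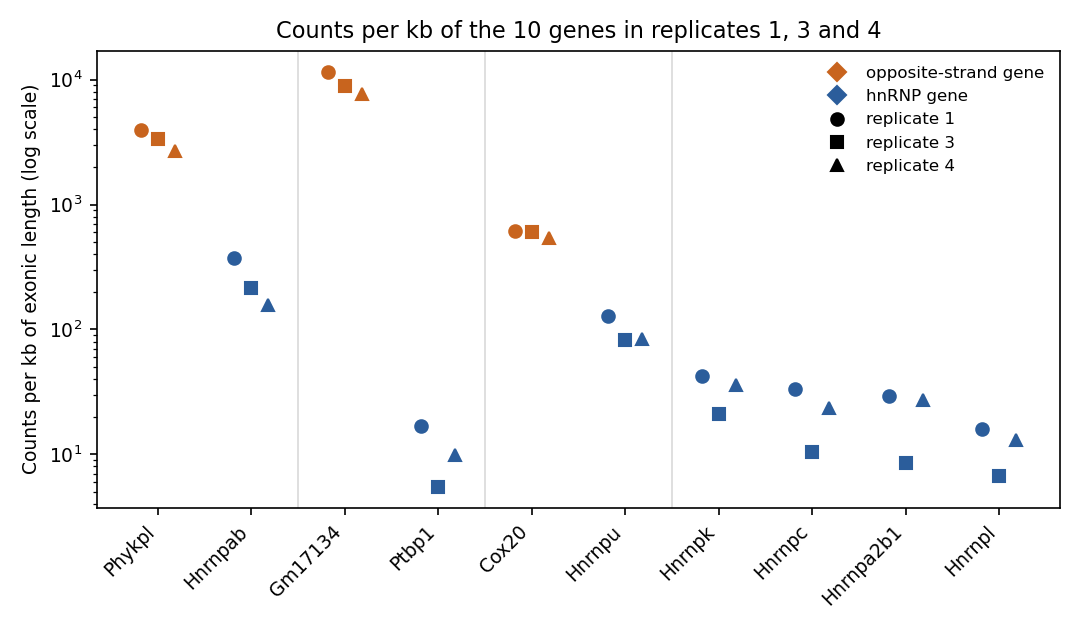
Counts per kb of exonic length (log scale) of the 10 genes, with each point one library, the opposite-strand gene left of its hnRNP gene, and symbols for replicates 1, 3 and 4. Phykpl, Gm17134 and Cox20 lie above Hnrnpab, Ptbp1 and Hnrnpu in every library shown, and Hnrnpk, Hnrnpc, Hnrnpa2b1 and Hnrnpl are lowest in replicate 3.

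The wider list of 33 genes, chosen from knowledge of the family, was examined for the same pattern. Of these, 15 had exons opposite another gene, in 19 pairs, each with 10 or more counts in the partner. The partner was denser in each of replicates 1, 3 and 4 in 16 pairs, in none of them in 2 and in some of them in 1. In 98.2% of all opposite-strand pairs with 300 or more counts the same gene was denser in each. A constant denser side was thus common in both, though the list's pairs were taken at a different threshold, of 10 or more partner counts. How often the partner is the denser side over comparable genes was not examined. The partners took 3.45%, 3.43% and 3.26% of all counts in replicates 1, 3 and 4, while the 33 genes themselves took 0.235%, 0.144% and 0.197%. With the opposite orientation, the larger shares would be fragments from the strands of the hnRNP genes, so 0.144% to 0.235% is no measure of the family's RNA.

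In 2 pairs the hnRNP-list gene was the denser one. Rmi1, a subunit of the BLM helicase complex, shares 53 bases with Hnrnpk and had 8, 6 and 3 counts, a density 0.0235- to 0.0807-fold that of Hnrnpk. 1600020E01Rik shares 75 bases with Pcbp1, a poly(C)-binding relative of Hnrnpk, and had 47, 28 and 21 counts. Gpr62 and Pcbp4 share only 51 bases, and there the partner was 7.37- to 19.0-fold denser. The mixed pair was Gm44702 and Hnrnpl, with 32 shared bases and 0.847-, 4.02- and 1.44-fold the density of Hnrnpl in replicates 1, 3 and 4.

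The other partners ranged from Gm27022 across from Hnrnpr, with 7, 13 and 5 counts, to Gm26518 across from Pcbp2, with 9261, 7815 and 6928. Map3k12, a kinase gene, shares 1571 bases with Pcbp2, 1537 of them in its 3′ UTR, and had 9624, 7353 and 6593 counts, against 229, 140 and 155 for Pcbp2. Gm17092 across from Hnrnpd had 1726, 1413 and 1031 counts, and 1700018M17Rik across from Ptbp3 had 606, 507 and 414. Gm43863 and 4933440N22Rik lie across from Hnrnpf, Rhbdd3 across from Ewsr1 and Rufy2 across from Hnrnph3.

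**Figure D3:**
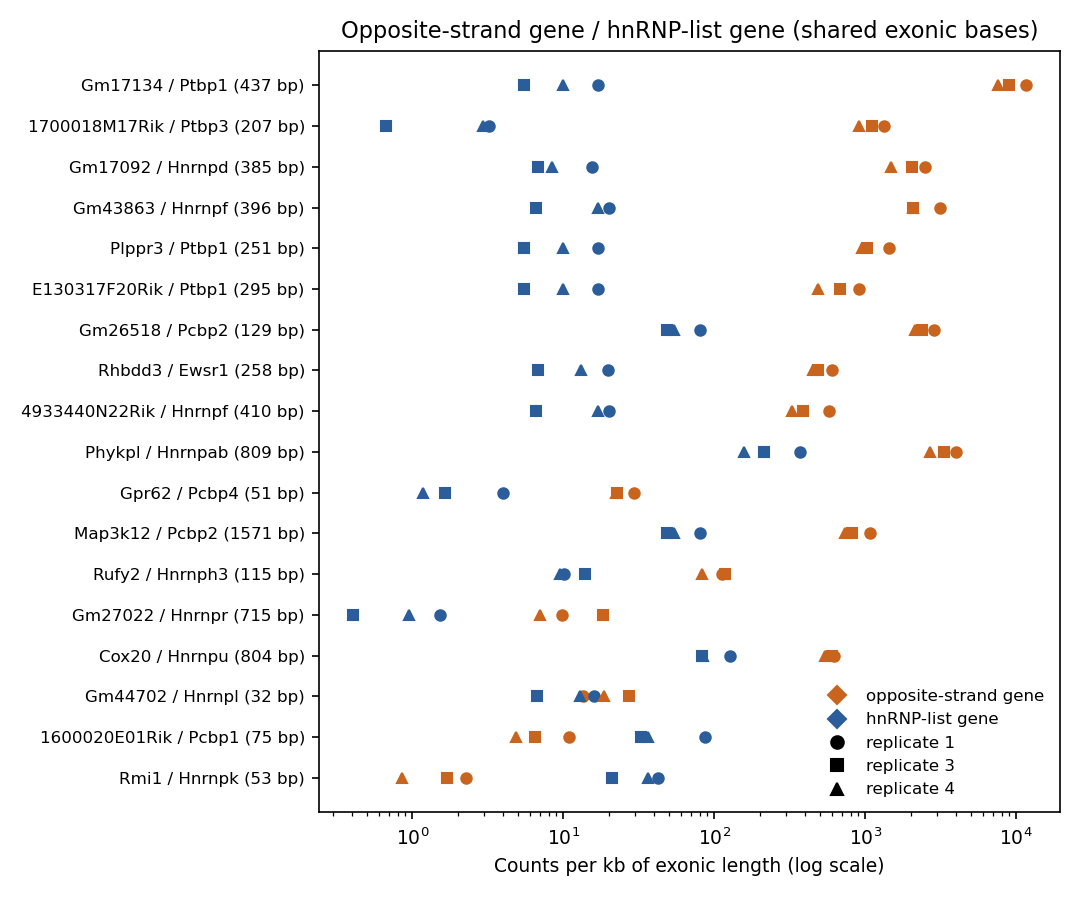
Counts per kb of exonic length (log scale) of each opposite-strand gene (orange) and its hnRNP-list gene (blue) in replicates 1, 3 and 4, for 18 of the pairs, with the shared exonic bases in brackets. In 15 of these 18 pairs all 3 orange points lie right of the blue ones, and Hnrnpk and Pcbp1 lie right of their partners.

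Between libraries, the 33 genes took 0.192% ± 0.0454 of all counts (SD, n = 3), and those without opposite-strand exons 0.0575% ± 0.0217. The share was lowest in replicate 3. The 3 partner genes Phykpl, Gm17134 and Cox20 together took 1.90% of the counts of replicate 3, against 1.84% and 1.74% in replicates 1 and 4, while the 7 hnRNP members took 0.0945%, against 0.135% and 0.116%. The sum over the T cell markers was also lower in replicate 3, at 402 CPM against 582 and 559 CPM, and that over the Th2 markers was 144 CPM against 259 and 252 CPM. The other-cell markers summed to 36.3 CPM in replicate 3, against 36.4 and 47.9 CPM, and their part in the result was not tested.

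Of the 10 genes, Hnrnpa2b1 and Hnrnpc were called lower in replicate 3. Each library was set against the other 3 with the quasi-likelihood test of edgeR over all 5969 genes with a mean count of 10 or more, which compares libraries, not conditions. The lone library has no spread of its own, and the counts are those in view when the genes were chosen, though that choice compared strands and not libraries. In replicate 3, 13.6% of all genes tested were called and 12.7% were called lower at a Benjamini-Hochberg adjusted p of 0.05, namely 25.2% of those without and 4.53% of those with opposite-strand exons. All 10 genes were tested. Hnrnpa2b1 had 29.0 CPM in replicate 3, against 80.8 and 104 CPM in replicates 1 and 4, with a log2 change of −1.52 (SE 0.38, adjusted p = 0.00315). Hnrnpc had 15.5 CPM, against 39.8 and 39.1 CPM, with a log2 change of −1.19 (SE 0.42, adjusted p = 0.042). In replicate 2, Hnrnpa2b1 had 1 count and Hnrnpc 0, so Hnrnpc was not lower than in every other library. The Hnrnpc call was lost in 5 alternatives, with adjusted p of 1 by DESeq2, 0.131 with no filter on low counts, 0.0895 without replicate 1, 0.0505 without replicate 4 and 0.738 with scaling on genes without opposite-strand exons. The Hnrnpa2b1 call was lost with DESeq2 (adjusted p = 1) and with that scaling (0.681). These were the only 2 of the 10 without opposite-strand exons.

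With all libraries in the fit, the others did not pass in replicate 3. Ptbp1 had a log2 change of −1.06 (edgeR adjusted p = 0.0914), Hnrnpl −0.87 (0.147) and Hnrnpk −0.68 (0.16). Hnrnpab stood at −0.003, with an adjusted p of 0.997, and Hnrnpu at −0.08. The partner genes Phykpl, Gm17134 and Cox20 stood at 0.50, 0.38 and 0.28. Without replicate 2, Phykpl stood at a log2 change of 0.23 and Hnrnpk at −0.69, and each passed the threshold there. The median over all genes tested with opposite-strand exons, the class of these genes, was then 0.12.

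In the wider list, 29 of 33 genes could be tested in replicate 3, and 10 fell and 0 rose, with a median log2 change of −0.87, against −0.02 over all genes tested and −0.80 over all genes without opposite-strand exons. By class, the list's median was −1.19 over its genes without opposite-strand exons and −0.78 over those with them. The matching medians over all genes tested were −0.80 and 0.16. Beside Hnrnpa2b1 and Hnrnpc the fallen genes included Hnrnpa1 (−1.41), Hnrnpa3 (−1.34), Hnrnph1 (−1.47), Hnrnph2 (−3.05), Syncrip (−1.39), Ptbp3 (−1.95) and Taf15 (−1.52). Hnrnpa1 and Hnrnpa3 are close relatives of Hnrnpa2b1, Hnrnph1 and Hnrnph2 bind G-rich tracts, and Ptbp3 is a paralog of Ptbp1. For Hnrnph2 the count was 2 in replicate 3, against 20 and 21 in the deep libraries 1 and 4. The calls of the list are to be read against the shares of all genes called lower in each class, given above. Of the 10, 8 were among the 15 tested without opposite-strand exons and 2, Ptbp3 among them, were among the 14 with them.

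When the scaling factors came from genes without opposite-strand exons, chosen after the data were seen, 0 of these 10 remained called and all 10 log2 changes were still negative. That scaling put the median of all genes tested at 0.81 in replicate 3, against −0.02 with all genes, and the median of the hnRNP list at −0.09. Under it Hnrnpab stood at 1.19, Hnrnpu at 1.08 and Hnrnpk at 0.25, so their signs turned. DESeq2 called 0 genes in replicate 3, with 20 at an unadjusted p under 0.05, against 1512 by edgeR.

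Of the 5 genes outside the set with the highest mean TPM, Hnrnpa1 (32.0 TPM) was called lower, as given above, and the other 4 did not pass in replicate 3. Pcbp2 stood at −0.20, Pcbp1 at −0.62, Hnrnpa0 at −0.54 and Hnrnpul2 at −0.36, with means of 43.0, 35.6, 21.6 and 20.9 TPM. Hnrnpll, the regulator of Ptprc exons, stood at −0.48, with 182, 74 and 68 counts in replicates 1, 3 and 4. Ptbp2, the paralog best known from neurons, had 2, 1 and 5 counts and was not tested.

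**Figure D4:**
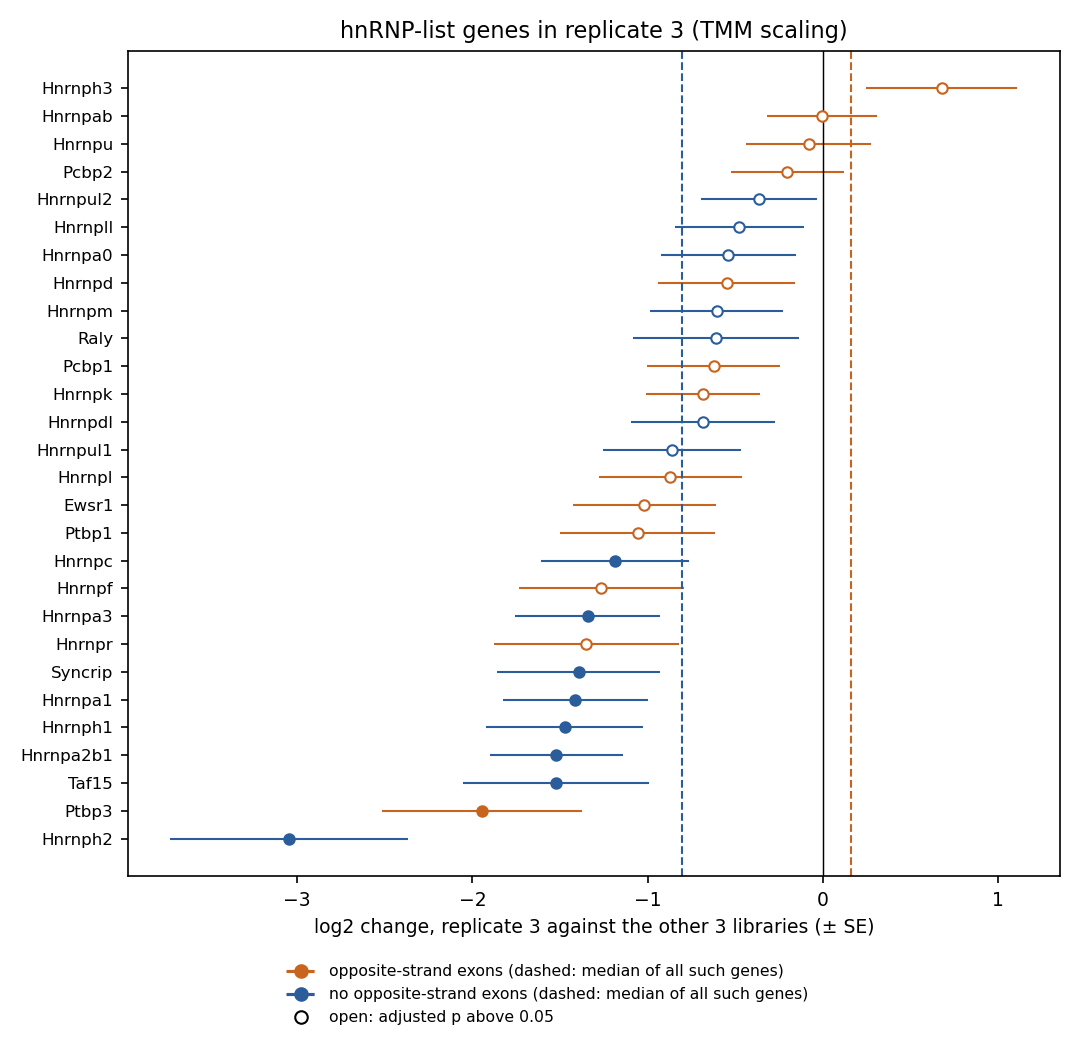
Log2 change (± SE) of 28 hnRNP-list genes in replicate 3 against the other libraries, by edgeR with TMM scaling over all genes, with filled points at an adjusted p of 0.05 or less. Of the 9 filled points, all lower, 8 have no opposite-strand exons, and the dashed lines give the medians of all tested genes with (0.16) and without (−0.80) such exons.

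Other splicing factors were also called in replicate 3. Of 12 tested SR genes 3 fell, namely Srsf3 (−2.33), Srsf5 (−1.55) and Srsf6 (−1.83), with a median of −0.87 over the list. That is read against the 25.2% of all genes without opposite-strand exons that were called lower, a class that holds 9 of the 12, so the SR list did not stand clear of this background. Srsf4 and Srsf9, the highest of the SR list in mean TPM on the assigned strand, stood at −0.19 and −0.59. Among 7 other splicing regulators tested, Celf1 (−1.52), Khdrbs1 (−1.42) and Mbnl1 (−1.41) fell, to be read against the same class. The 5 of these 7 without opposite-strand exons had a median of −1.41, against −0.80 over all such genes tested. Rbm39, the highest of these regulators in mean TPM on the assigned strand, stood at −0.31. All 6 fallen genes have no opposite-strand exons, and with scaling on that class none of these lists had a called gene.

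In replicates 1 and 4, with all libraries in the fit, none of the 10 genes was called, against backgrounds of 0.0503% and 0.0335% of genes tested, by edgeR or DESeq2, and 0 of the 10 had an unadjusted edgeR p under 0.05. Their log2 changes ran between −0.33 and 0.56 in replicate 1 and between −0.50 and 0.88 in replicate 4. The median over the 33-gene list was 0.48 in replicate 1 and 0.36 in replicate 4, with 0 called in each, and 1 and 0 genes at an unadjusted p under 0.05. Leaving out 1 library changed which genes passed, inside and outside the list, so only effect sizes are given for those fits. Without replicate 4, Hnrnpa2b1 stood at a log2 change of 1.32 in replicate 1, Hnrnpa3 at 1.30, Hnrnpr at 1.47 and Syncrip at 1.45. The list median was 0.97, namely 1.11 over its genes without opposite-strand exons and 0.81 over those with them. Over all genes tested the median was 0.23, with 0.82 and 0.08 in these classes. Without replicate 1, Hnrnpa2b1 stood at a log2 change of 1.75 in replicate 4, Hnrnpa1 at 1.65, Hnrnph1 at 1.77 and Taf15 at 1.62. The list median was 0.90, namely 1.09 without and 0.85 with opposite-strand exons. Over all genes tested the median was 0.20, with 0.64 and 0.09 in these classes. Without replicate 3, Hnrnpa0 stood at 1.45 in replicate 1 and −1.48 in replicate 4, and the list medians were 0.09 and −0.02. These tests assume that the lone library varies like the others, and a p above the threshold does not show that levels were alike.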

How the data were processed

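RNA from Th2 cells of 4 samples in 1 group was sequenced. The authors deposited whole-number fragment counts, unnormalised. Per the file headers, reads aligned with STAR (mm10) were assigned to GENCODE vM13 exons by featureCounts 1.4.6-p4, with both mates required to map and strand setting 1. The version of STAR and the strand chemistry of the kit are not given in the sources used here. Symbols, biotypes and transcript classes came from GENCODE vM21, where 224 of 50600 identifiers had no symbol.

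CPM, TPM and counts per kb were derived from these counts and the files' exonic lengths (Python 3.11.15; scipy 1.17.1, numpy 2.4.6, pandas 2.3.3). Opposite-strand exonic overlaps of 1 base or more were found with bedtools 2.31.1. Log2 density ratios used a count plus 0.5. Libraries were tested with edgeR 4.0.16 in R 4.3.3 (TMM, mean count of 10 or more, Benjamini-Hochberg at 0.05), after a test on simulated data. DESeq2 1.42.0 was the alternative. Exact binomial 95% intervals and the 3-count floor cover counting error only, since the fragments carry no molecular identifiers. No 2 libraries agreed within sampling noise (chi-square over its degrees of freedom of 2.78 or more).

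The members and lists were chosen with earlier results of these data known. Named by rule were all members, the 5 other hnRNP genes with the highest mean TPM, called genes, Hnrnpll, Ptbp2 and Ptbp3. Also named were the 2 SR genes and the 2 other regulators with the highest mean TPM, partners with 10 or more counts, and the 3 nearest pairs. Results for 1 gene of the hnRNP list and its pair are counted but not reported here by name. Promoter sequences are RefSeq's, build GRCm38.p6.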

Additional observations from a re-analysis of the deposited data

Results flagged for a closer look

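Ptbp1 stood at 199.362 CPM in replicate 2, far above 33.5, 13.5 and 27.4 CPM in replicates 1, 3 and 4. The value rests on 1 count of 5016, below the 3-count floor of 598.09 CPM. Its gap to the next library was 0.892 of the range over the 4 libraries, above Dixon's critical value for 4 samples. It was the 1 value of 14 so examined that met this criterion. A single count in replicate 2 already stands at 199.362 CPM, so the depth of that library sets the gap. The usual chance rate of the criterion does not apply to it.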

How the results depend on the processing

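No paired analysis was possible because all 4 libraries belong to 1 group. The genes apart in replicates 1, 3 and 4 numbered 3, 809 and 2 with edgeR. DESeq2 called 0 in each, with 1, 20 and 2 genes at an unadjusted p under 0.05, against 70, 1512 and 36 by edgeR. Scaling on genes without opposite-strand exons, chosen after the data were seen, gave 1, 4 and 0. Leaving out 1 library gave 2 to 638 for replicate 1 (638 without replicate 4, 8 without replicate 3), 469 to 1051 for replicate 3 (469 without replicate 1) and 3 to 423 for replicate 4 (423 without replicate 1, 7 without replicate 3). The cause was not tested.

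Per kb of the overlap, the log2 ratio of Phykpl to Hnrnpab was 7.40 in place of 3.82, since all Phykpl counts are then set against the 809 shared bases alone, and those of Hnrnpab against its own exonic length. The share of the hnRNP list was 0.373% of the counts of protein-coding genes and 0.0575% over genes without opposite-strand exons, in place of 0.192%. The log2 change of Hnrnpab in replicate 3, −0.003, turned to 0.0381 with DESeq2, 0.0819 with no filter on low counts and 1.19 with the class scaling, and ran between −0.0561 and 0.42 (without replicate 1) when 1 library was left out. That of Hnrnpu, −0.08, turned to 0.0203 with no filter and 1.08 with the class scaling, and ran between −0.1181 and 0.0584 (without replicate 4; 0.0559 without replicate 1) when 1 library was left out, and that of Hnrnpk to 0.25 with the class scaling. None of these passed the threshold. Of the 10 hnRNP-list genes called lower in replicate 3, 10 were still called with DESeq2 size factors in edgeR or without replicate 2, 3 with no filter, and 5 of the 8 with a value without replicate 1, likewise without replicate 4. Hnrnpc lost its call in the last 3, at adjusted p of 0.131, 0.0895 and 0.0505, while Hnrnpa2b1 kept it there. With 5016 counts, replicate 2 limits every value that rests on it.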
